A study of Homo sapiens with 12 samples.

Results

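Human HMC3 cells in which ephrin-B1 had been knocked down and which were then given its receptor EphB2 were compared with control cells by bulk RNA sequencing. HMC3 is an immortalized line derived from human microglia, the resident macrophages of the brain. The libraries were taken by their labels: 3 of the group EphB2 + ephrin-B1 siRNA (ephrin-B1 siRNA, then EphB2-Fc), named the combined treatment here, and 3 of the group Ctrl (negative control siRNA, then Ctrl-Fc), 6 of the 12 libraries of the experiment. Every culture received RNAiMAX transfection reagent with an siRNA for 48 h and then a clustered Fc protein at 2 µg/mL for 24 h, so the controls carried the reagent, an siRNA and a clustered Fc protein as well. The other groups, EphB2 (negative control siRNA, then EphB2-Fc) and ephrin-B1 siRNA (ephrin-B1 siRNA, then Ctrl-Fc), had 3 libraries each and show what each part of the combined treatment did alone against the same Ctrl libraries. The comparison asked what the RNA of these cells looked like when EphB2 stimulation met a reduced amount of ephrin-B1. All cultures were the same immortalized line, and the siRNA acts for days and lowers a transcript without deleting the gene.

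Ephrins and Eph receptors are both anchored in the membrane and signal into both cells when they meet. Signaling into the cell that carries the Eph receptor is called forward signaling, and signaling into the cell that carries the ephrin is called reverse signaling. EphB2 binds the transmembrane ephrins-B1, -B2 and -B3 and, more weakly, some ephrins-A, and a soluble EphB2-Fc protein that has been cross-linked into clusters is the usual reagent to start reverse signaling. Ephrin-B tails recruit adaptor proteins and kinases of the Src family, and in the nervous system these proteins are best known for axon guidance, synapse formation and injury responses of glia. An siRNA guides the Argonaute complex to a matching transcript, which is then cut and degraded.

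Values are estimated read counts summed per gene and scaled to CPM (counts relative to the library's total, using normalized library sizes), and changes are log2 fold changes with their standard error (SE) from a count model fitted to all 12 libraries and 21601 genes. Genes were called changed at a Benjamini-Hochberg adjusted p under 0.05. Where a second value is given with the block, each treated library was set against the Ctrl library of the same replicate number. Calls are those of the fit without the block unless the block is named. The libraries held 13179703 to 20186469 counts in genes in Ctrl and 12639424 to 24561776 in the combined treatment, so 3 counts in the shallowest library were 0.237 CPM. Of 20 microglia and macrophage markers, 16 were counted well enough for a test and 0 of them were called (2 higher with the block). TYROBP, CX3CR1 and C1QA had no count in any of the 6 libraries, nor had AIF1, for which transcripts of other MHC copies may have been left out, SPI1 reached 4 counts, P2RY12 6, ITGAM 11, TREM2 12 and TMEM119 13, while CD68 held 271 to 721. The defining microglial markers named here, CD68 aside, were therefore at or near 0 in these libraries, and the cells are called HMC3 here. The summed level of the 20 markers was 206.2, 206.0 and 206.9 CPM in the Ctrl libraries and 229.3, 257.0 and 230.9 CPM in the combined ones, with no overlap. None of the listed markers of pericytes, astrocytes, neurons, oligodendrocytes and endothelial cells was called without the block. With it 3 pericyte markers, 1 astrocyte marker and 1 oligodendrocyte marker were lower and 1 oligodendrocyte marker was higher. The summed level of the 8 astrocyte markers was 181.0, 214.0 and 194.6 CPM in Ctrl and 139.0, 156.3 and 148.2 CPM in the combined libraries, with no overlap, and its part in the results was not tested.

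The transcript that the siRNA targeted was lower in every treated library. EFNB1, the gene of ephrin-B1 (chromosome X, 68829021 to 68842160, plus strand, GRCh38), stood at 20.4, 17.4 and 19.3 CPM in Ctrl replicates 1, 2 and 3 and at 6.56, 6.03 and 6.38 CPM in the combined replicates. The groups did not overlap, and the combined mean of 6.32 ± 0.272 CPM was 33.1% of the Ctrl mean of 19.1 ± 1.52 CPM (SD, n = 3 libraries each). The log2 fold change was -1.59 ± 0.13 (SE, adjusted p = 0.000548, edgeR quasi-likelihood test). With EphB2-Fc alone EFNB1 stood at 15.6, 18.8 and 18.4 CPM, and with the siRNA alone at 7.10, 6.60 and 8.70 CPM, so the combined level differed from EphB2 alone by -1.47 (log2, adjusted p = 0.00189) and from the siRNA alone by -0.24 ± 0.13 (SE, adjusted p = 0.686). Without replicate 3 of every group the log2 fold change was -1.58 and the adjusted p 0.455. In bulk RNA, fewer cells that express a gene and less of its RNA per cell cannot be told apart.

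The other ephrin-B and EphB transcripts showed no call without the block. EFNB2, which encodes another ligand of EphB2, stood at 51.1, 41.4 and 40.8 CPM in Ctrl and 57.8, 35.4 and 57.4 CPM after the combined treatment (log2 fold change 0.18 ± 0.24, adjusted p = 0.861), and the groups overlapped. EFNB3 had a log2 fold change of -0.21 ± 0.09 (adjusted p = 0.346). EPHB2, the receptor itself, stood at 59.5, 73.4 and 65.8 CPM in Ctrl and 54.9, 51.4 and 55.6 CPM in the combined libraries, -0.30 ± 0.09 on the log2 scale (adjusted p = 0.135). That value passed with the block (adjusted p = 0.00974). EPHB4, the receptor that pairs with ephrin-B2 in vessels, differed by 0.01 ± 0.07. EPHB1 and EPHB6 stayed at or under 0.981 CPM in the 6 libraries, and EPHB3 between 2.22 and 4.13 CPM. Of all 22 ephrin and Eph genes, 1 (EFNB1) fell and 0 rose, and 3 fell with the block. Among 23 known partners of ephrin-B reverse signaling, such as NCK adaptors, Src family kinases and the PDZ protein syntenin (SDCBP), 0 were called, against 4 higher and 3 lower with the block.

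Across all genes, 434 of 21601 (2.01%) were called between the combined treatment and Ctrl, 159 higher (0.736%) and 275 lower (1.27%), and 430 of them were protein coding. Changes were mostly moderate, with a median log2 fold change of 0.44 among the called rises and -0.49 among the called falls, and 10 genes past 1 and 16 past -1. In all 434 the 3 combined libraries lay outside the range of the 3 Ctrl libraries, which held for 3958 of all genes tested (18.3%). The count depended on which replicates were fitted, and most on replicate 3. Without replicate 3 of every group 0 genes were called by the same edgeR fit (970 at an unadjusted p under 0.05), without replicate 2 there were 37 and without replicate 1 there were 298. Under the block 3261 genes were called (15.1%), 1309 higher (6.06%) and 1952 lower (9.04%), and with the block and without replicate 3 there were 1167, 398 of them among the 434. Replicates 1 and 2 of a group differed from each other in many genes and replicate 3 lay between them, for 89.5 to 93.5% of the 1092 to 1147 genes per group that stood at least 2-fold apart. What set the replicates apart was not tested. Every list count given below for the fit without block is 0 without replicate 3, since no gene was called then. List counts, above and below, are to be read beside the shares of all genes. These were 0.736% higher and 1.27% lower without the block, and 6.06% and 9.04% with it.

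**Figure D1:**
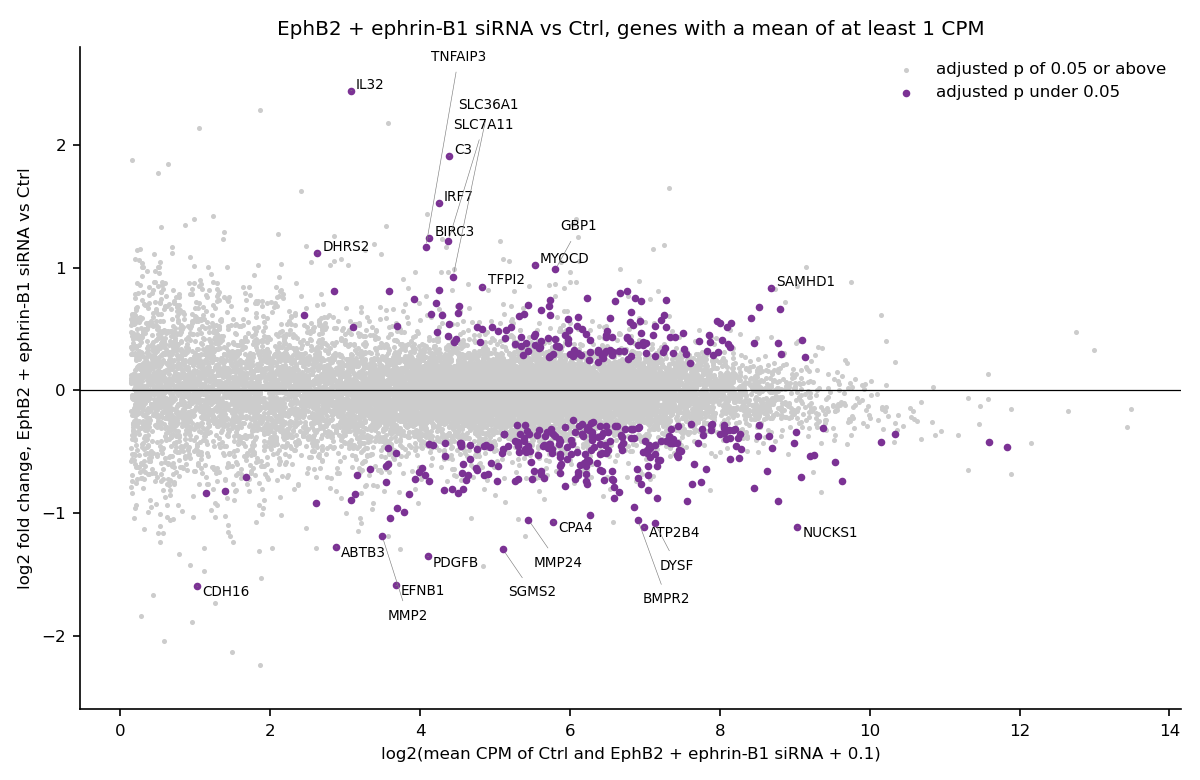
Log2 fold change of the combined treatment against Ctrl (vertical axis) against the log2 of the mean CPM plus 0.1 (horizontal axis) for 14264 genes with a mean of at least 1 CPM, 4 of them outside the axes. The 430 called genes drawn are coloured and the 24 largest changes are labelled, with IL32, C3 and IRF7 highest and CDH16 and EFNB1 lowest.

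The 12 largest rises were led by IL32, C3 and IRF7. IL32, which encodes the proinflammatory cytokine interleukin-32, rose from 3.37, 1.75 and 2.72 CPM in Ctrl to 17.6, 8.60 and 16.0 CPM in the combined libraries (log2 fold change 2.44 ± 0.38, adjusted p = 0.00841). C3, the central component of the complement cascade, rose from 7.26, 9.96 and 8.83 CPM to 25.8, 38.0 and 34.8 CPM (1.91 ± 0.21, adjusted p = 0.00208). IRF7, the transcription factor that amplifies type I interferon production, stood at 9.36, 8.62 and 11.2 CPM in Ctrl and 32.3, 15.4 and 36.9 CPM after treatment (1.53 ± 0.33, adjusted p = 0.037). In these 3 genes every treated library was above every Ctrl library, and IL32 and IRF7 were lowest in replicate 2 of the treated group. Next came the NF-kB feedback genes BIRC3 (1.24) and TNFAIP3 (1.17), and the cystine transporter SLC7A11 (1.22). DHRS2, a mitochondrial short-chain dehydrogenase, rose by 1.12, and MYOCD, the coactivator that drives smooth muscle genes, by 1.02. The last 4 were the guanylate-binding protein GBP1 (0.99), the lysosomal amino acid transporter SLC36A1 (0.93), the protease inhibitor TFPI2 (0.85) and the dNTP hydrolase SAMHD1 (0.84), which restricts retroviruses.

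The 12 largest falls were led by CDH16, EFNB1 and PDGFB. CDH16, a cadherin best known from kidney, was low throughout, at 3.22, 2.74 and 2.77 CPM in Ctrl and 1.02, 0.761 and 1.09 CPM in the combined libraries (-1.60 ± 0.28, adjusted p = 0.0149). PDGFB, the growth factor that recruits pericytes to vessels, fell from 24.2, 24.1 and 25.4 to 11.2, 6.79 and 10.8 CPM (-1.35 ± 0.18, adjusted p = 0.00403). SGMS2, a sphingomyelin synthase of the plasma membrane, fell from 43.7, 53.9 and 49.1 to 22.5, 17.1 and 19.9 CPM (-1.30 ± 0.12, adjusted p = 0.000659). None of these overlapped between groups. EFNB1 itself, given above, stood between CDH16 and PDGFB in size. ABTB3 (-1.28) followed SGMS2, then came the gelatinase MMP2 (-1.19), the plasma membrane calcium pump ATP2B4 (-1.12) and the chromatin protein NUCKS1 (-1.12). The set closed with the membrane repair protein dysferlin (DYSF, -1.08), the carboxypeptidase CPA4 (-1.07), the membrane-type metalloproteinase MMP24 (-1.06) and the BMP receptor BMPR2 (-1.06). Standard errors of these 24 genes ran from 0.09 to 0.38 and adjusted p from 0.000548 to 0.045.

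**Figure D2:**
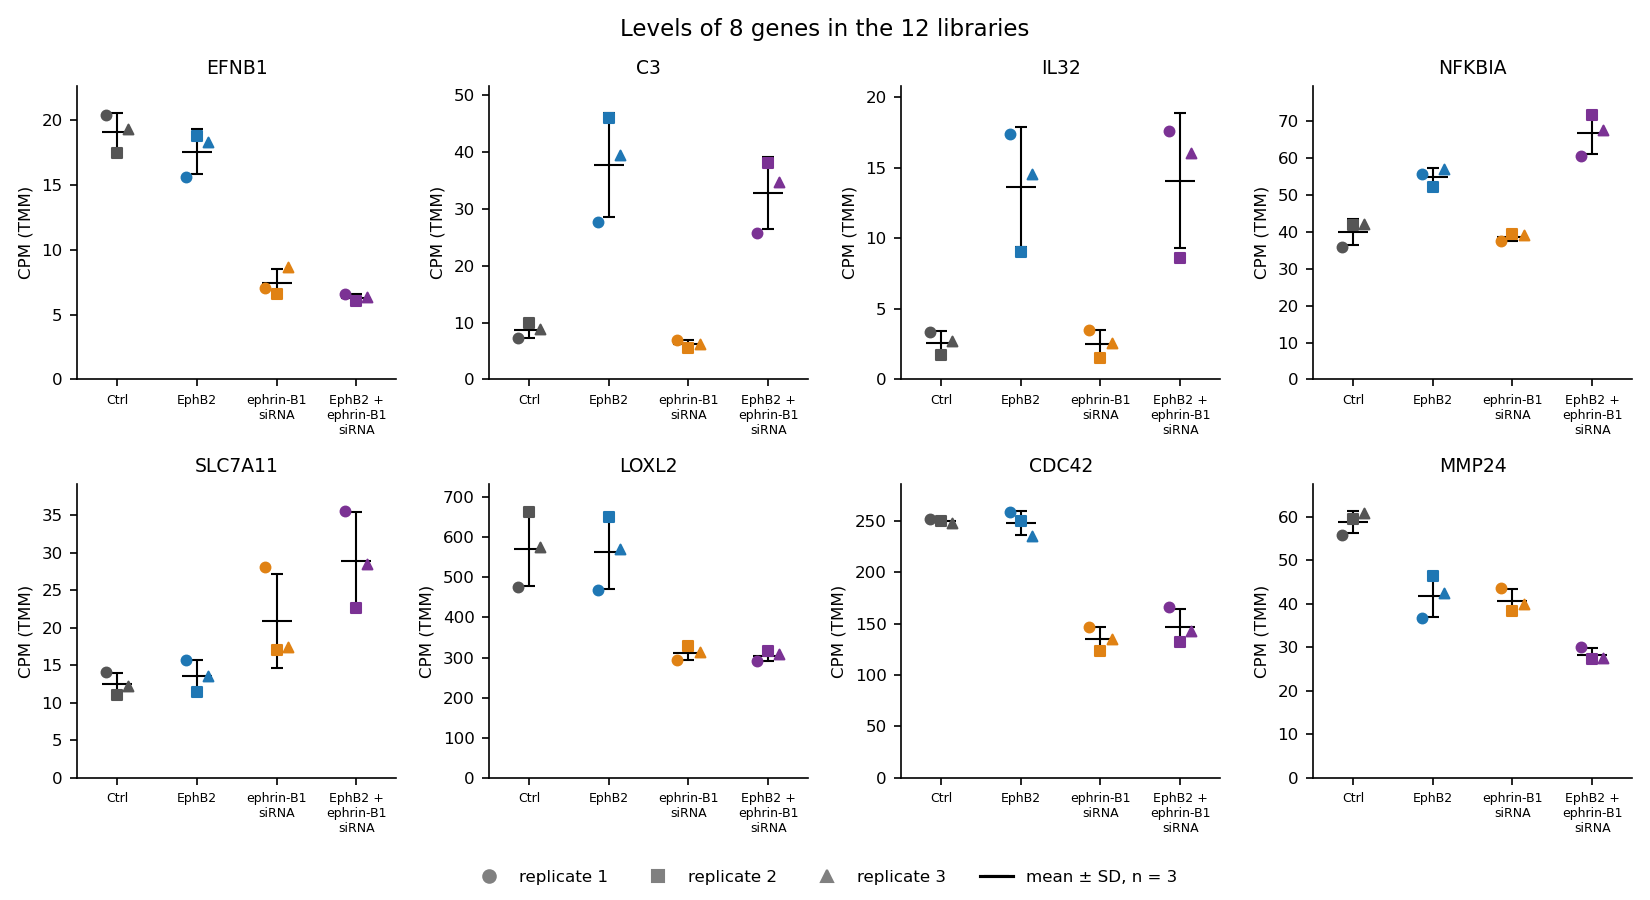
CPM in each of the 12 libraries for EFNB1, C3, IL32, NFKBIA, SLC7A11, LOXL2, CDC42 and MMP24, by group, with points marked by replicate and bars for the mean and SD of 3 libraries. In all 8 genes the combined libraries lie outside the range of the Ctrl libraries.

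The calls among genes of the type I interferon response were all rises. Interferons made by a cell or its neighbours activate a complex that holds STAT2 and IRF9, which binds promoters of antiviral genes. Of 72 listed genes 13 were called higher (18.1%, against 0.736% of all genes) and 0 lower, and the median log2 fold change was 0.75 against 0.001 over all genes. The fold change was above 0 in 70 of the 72, and 64 were higher in 3 of 3 same-numbered pairs, as were 21.4% of all genes (23.1% were lower in 3 of 3). Leaving out the genes that the study itself names for these cells, 11 of 65 were called higher. With the replicate block 62 rose and 0 fell. The count was 19 without replicate 1 and 2 without replicate 2, and over single libraries left out it ran from 0 to 24.

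**Figure D3:**
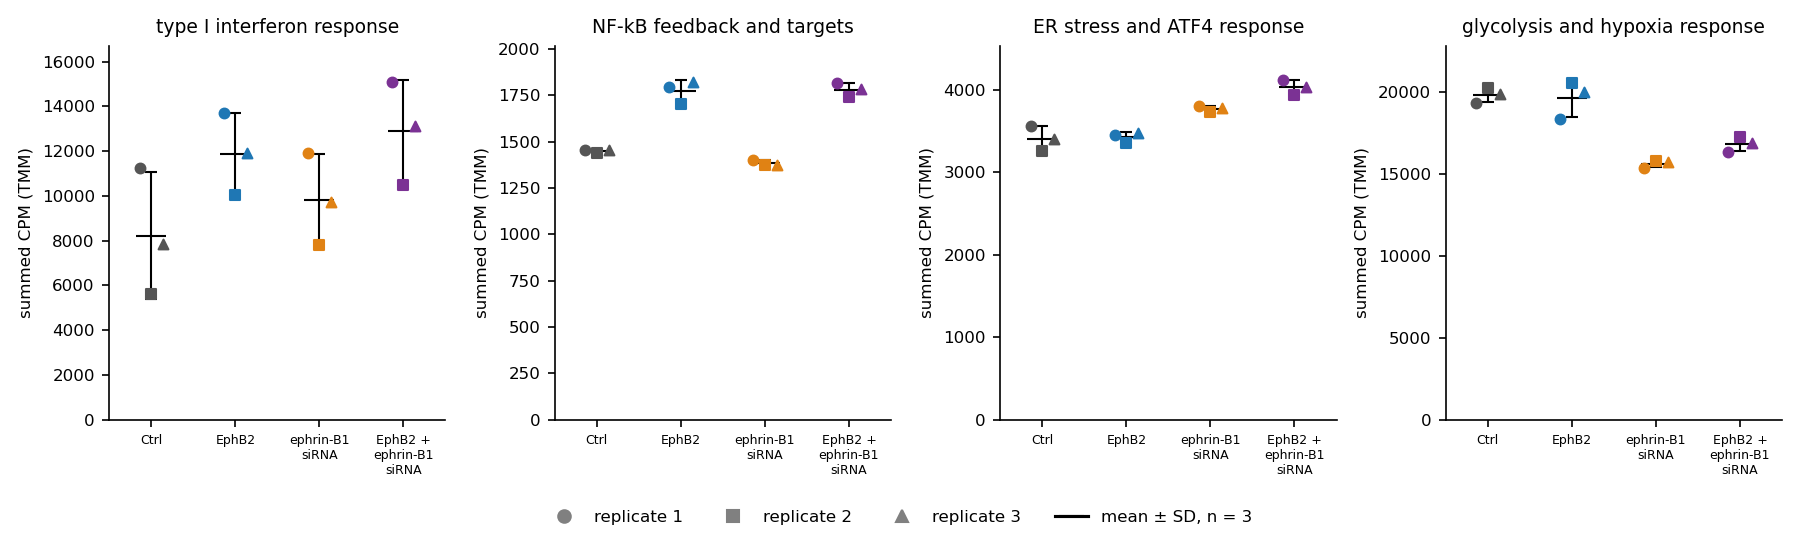
Summed CPM of 4 gene lists (type I interferon response, NF-kB feedback and targets, ER stress and ATF4 response, glycolysis and hypoxia response) in each library, by group, with points marked by replicate. The interferon genes of Ctrl replicate 1 lie above those of the combined replicate 2, while the other 3 lists do not overlap between Ctrl and the combined treatment.

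The interferon genes also differed between control libraries. Their summed level was 11228, 5599.5 and 7825 CPM in Ctrl replicates 1, 2 and 3 and 15081, 10486 and 13119.5 CPM in the combined ones. Ctrl replicate 1 was the highest control in 65 of the 72 genes and stood above the combined replicate 2 in 38. The groups overlapped in 41 and did not overlap in 31, where 18.3% of all genes tested did not overlap. The rise within same-numbered pairs was a median log2 of 0.47 in replicate 1, 0.94 in replicate 2 and 0.81 in replicate 3.

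Among the 13, IRF7 had the largest rise, given above, and the others, sensors and effectors of antiviral defence among them, rose by less. STAT2, a subunit of the factor that interferon activates, stood at 227, 194 and 203 CPM in Ctrl and 298, 308 and 305 CPM after the combined treatment (0.55 ± 0.07, adjusted p = 0.00403). IFI16, a nuclear DNA sensor, rose from 98.7, 64.0 and 73.7 to 137, 140.4 and 138 CPM (0.81 ± 0.13, adjusted p = 0.011). Both were higher in every treated library than in any control. GBP1 rose from 45.9, 30.9 and 36.0 to 83.2, 61.9 and 77.6 CPM (adjusted p = 0.00816) and GBP3, another interferon-inducible GTPase, from 36.6, 30.8 and 31.0 to 48.4, 51.4 and 51.7 CPM (0.62, adjusted p = 0.00469). IFIT5, which binds viral RNA ends, rose from 60.8, 42.4 and 47.7 to 83.9, 70.5 and 70.5 CPM (0.58, adjusted p = 0.0319), and IFITM3, which blocks entry of enveloped viruses, from 329, 213 and 274 to 419, 389 and 422 CPM (0.59, adjusted p = 0.0462). IFITM genes are near-identical copies, so reads may be split among them. The remaining calls were the aminopeptidase LAP3 (0.75), the PARP family member PARP9 (0.75), the scramblase PLSCR1 (0.73), the ubiquitin ligase family member TRIM14 (0.74), the nuclear body protein SP100 (0.61) and the frameshift inhibitor SHFL (0.38).

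Promoters of 6 genes are shown because interferon and NF-kB act on short promoter elements that can be read in them. They are RefSeq sequences of GRCh38.p14, from 250 bases before to 50 after the start site, 5′ to 3′ on the gene's strand, with capitals for matches to either of 2 motifs. The ISRE-like motif, for the interferon-stimulated response element, is GAAA, then 2 bases of any kind, then GAAA, and the kB-like motif is GGG, then 5 bases of any kind, then CC, each on either strand and with overlaps allowed. The 3 interferon genes are IFIT5 (chr10:89414318-89414617, plus strand), GBP1 (chr1:89065159-89065458, minus strand) and IFITM3 (chr11:320811-321110, minus strand), and the 3 NF-kB genes are NFKBIA (chr14:35404700-35404999, minus strand), TNFAIP3 (chr6:137867009-137867308, plus strand) and BIRC3 (chr11:102317234-102317533, plus strand).
IFIT5: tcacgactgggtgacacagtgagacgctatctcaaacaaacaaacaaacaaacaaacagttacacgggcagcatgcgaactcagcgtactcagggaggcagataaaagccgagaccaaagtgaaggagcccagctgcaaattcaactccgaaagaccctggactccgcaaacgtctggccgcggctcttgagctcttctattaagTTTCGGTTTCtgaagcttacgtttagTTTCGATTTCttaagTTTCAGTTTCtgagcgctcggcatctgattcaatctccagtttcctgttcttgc
GBP1: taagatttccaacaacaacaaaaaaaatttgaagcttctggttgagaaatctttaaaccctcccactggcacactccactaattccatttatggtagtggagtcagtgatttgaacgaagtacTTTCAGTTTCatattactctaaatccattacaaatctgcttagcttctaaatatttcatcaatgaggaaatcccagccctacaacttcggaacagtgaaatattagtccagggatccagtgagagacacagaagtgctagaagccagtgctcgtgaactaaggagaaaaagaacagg
IFITM3: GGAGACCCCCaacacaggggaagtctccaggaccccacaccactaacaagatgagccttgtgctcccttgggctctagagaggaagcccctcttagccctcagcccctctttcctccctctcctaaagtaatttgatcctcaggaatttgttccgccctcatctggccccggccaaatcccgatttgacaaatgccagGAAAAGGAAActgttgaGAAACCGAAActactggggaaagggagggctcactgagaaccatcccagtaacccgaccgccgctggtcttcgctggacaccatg
NFKBIA: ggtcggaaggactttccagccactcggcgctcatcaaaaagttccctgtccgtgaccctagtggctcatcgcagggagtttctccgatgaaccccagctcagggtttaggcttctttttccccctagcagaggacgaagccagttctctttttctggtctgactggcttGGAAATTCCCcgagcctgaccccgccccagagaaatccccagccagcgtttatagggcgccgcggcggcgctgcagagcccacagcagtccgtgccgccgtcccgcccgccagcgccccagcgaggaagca
TNFAIP3: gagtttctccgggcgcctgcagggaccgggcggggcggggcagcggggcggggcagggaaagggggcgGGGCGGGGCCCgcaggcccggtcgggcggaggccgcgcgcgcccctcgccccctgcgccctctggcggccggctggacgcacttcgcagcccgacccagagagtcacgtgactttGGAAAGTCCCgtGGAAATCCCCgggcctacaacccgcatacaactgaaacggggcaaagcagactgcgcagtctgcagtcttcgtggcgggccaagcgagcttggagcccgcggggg
BIRC3: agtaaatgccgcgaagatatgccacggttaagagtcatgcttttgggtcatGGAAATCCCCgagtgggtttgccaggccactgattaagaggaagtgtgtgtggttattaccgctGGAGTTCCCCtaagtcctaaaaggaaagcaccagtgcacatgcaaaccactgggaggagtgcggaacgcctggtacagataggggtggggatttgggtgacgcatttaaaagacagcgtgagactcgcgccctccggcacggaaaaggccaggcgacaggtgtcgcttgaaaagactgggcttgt

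The ISRE-like letters occurred 3 times in the IFIT5 promoter, 2 times in that of IFITM3 and 1 time in that of GBP1, where the match began 127 bases before the start site. They were in 36 of the 55 interferon-list promoters found (65.5%), in 8 of the 12 of the called members with an entry (66.7%), in 401 of 13482 promoters of genes tested (2.97%) and in 996 of all 27305 (3.65%). The kB-like letters occurred 1 time in the NFKBIA promoter, 4 times in that of TNFAIP3 and 2 times in that of BIRC3. They were in 27 of the 28 promoters of the NF-kB list (96.4%) and in all 6 of the called members found, but also in 70.9% of the promoters of all genes tested and 58.0% of all promoters. A match to these letters is a description of the sequence.

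The calls among genes of NF-kB signaling were rises as well. NF-kB factors switch on inflammatory and survival genes, among them their own inhibitors. Of 32 listed genes 7 were called higher (21.9%, against 0.736% of all genes) and 0 lower, with a median log2 fold change of 0.33, and 23 were higher in 3 of 3 pairs against 4 lower (21.4% and 23.1% of all genes). With the replicate block 17 rose and 2 fell, and the count was 6 without replicate 1 and 0 without replicate 2. The summed level was 1456, 1439 and 1456 CPM in Ctrl and 1816, 1741 and 1783 CPM after the combined treatment, so here the groups were apart and the replicates of each close together.

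NFKBIA, the inhibitor IkB-alpha that holds NF-kB in the cytoplasm (chromosome 14, 35401079 to 35404749, minus strand), stood at 36.0, 41.8 and 42.2 CPM in Ctrl and 60.8, 71.8 and 67.8 CPM in the combined libraries (0.74 ± 0.08, adjusted p = 0.00236). NFKBIE, a related inhibitor, rose from 15.9, 12.1 and 13.3 to 26.8, 21.2 and 24.4 CPM (0.81 ± 0.14, adjusted p = 0.0141). TNFAIP3, the deubiquitinase A20 that ends NF-kB signaling, rose from 11.8, 8.62 and 10.7 to 30.6, 18.0 and 21.2 CPM (adjusted p = 0.0321), and BIRC3, a ubiquitin ligase of the TNF receptor complex, from 12.4, 8.11 and 10.3 to 25.4, 23.9 and 23.6 CPM (adjusted p = 0.00412). These 4 calls are inhibitors or regulators of the pathway. Of the factors, NFKB2 rose from 64.2, 83.7 and 75.8 to 117, 136 and 134 CPM (0.79, adjusted p = 0.00469) and NFKB1 from 20.6, 26.9 and 28.6 to 34.9, 37.1 and 37.3 CPM (0.52, adjusted p = 0.0462). The autophagy receptor SQSTM1 rose by 0.39 ± 0.06 (adjusted p = 0.00555), and RELA, the p65 subunit, differed by 0.12 ± 0.06 (adjusted p = 0.389).

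**Figure D4:**
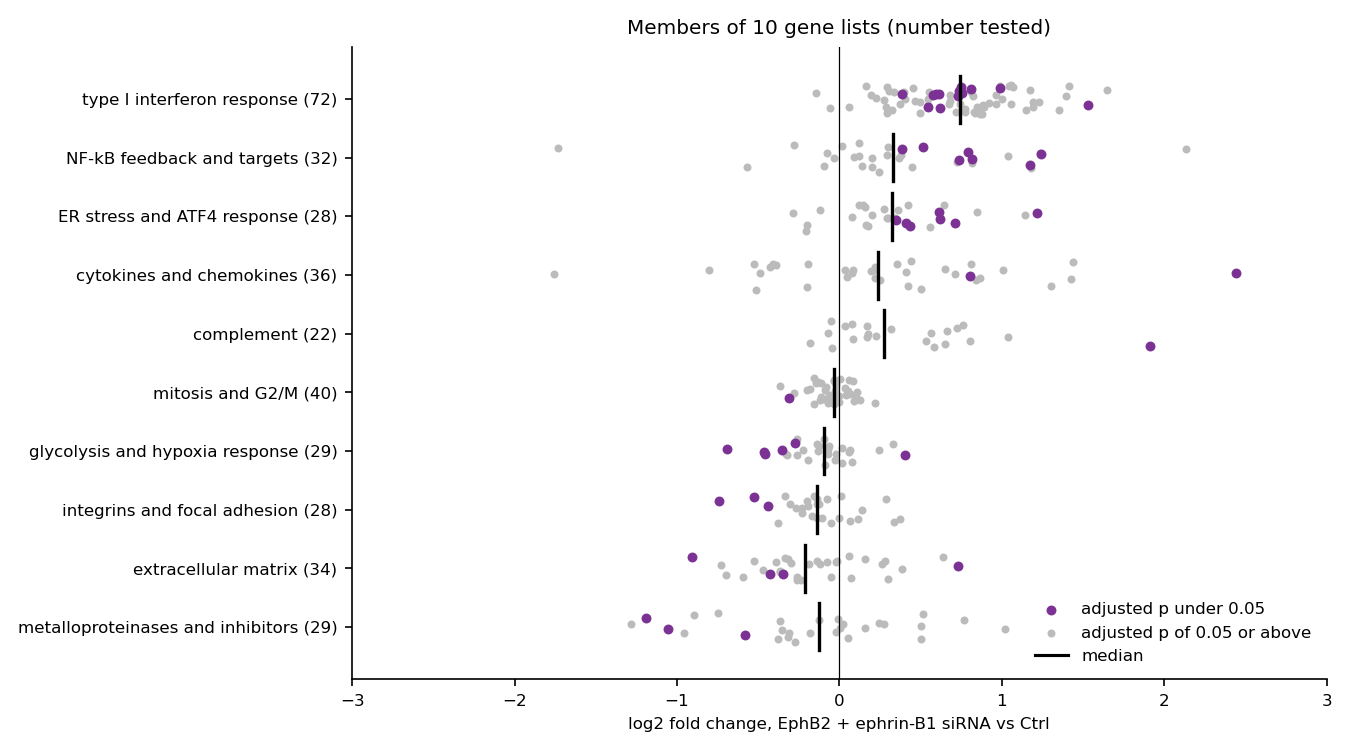
Log2 fold change of the combined treatment against Ctrl for the tested members of 10 gene lists, 1 point per gene, with called genes marked and a bar at each list's median; 3 members lie outside the axis limit of 3. The interferon list has its median at 0.75, the NF-kB list at 0.33 and the ER stress list at 0.32, and the lists for matrix, adhesion and glycolysis have medians below 0.

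Among cytokines and secreted factors few transcripts passed the test without the block. Of 36 cytokine and chemokine genes tested, 2 rose (5.56%, against 0.736% of all genes) and 0 fell, with a median of 0.24. With the block 10 rose and 4 fell. The calls were IL32 and IL6, the acute-phase cytokine, which stood at 4.64, 6.09 and 4.76 CPM in Ctrl and 10.8, 8.07 and 8.17 CPM after the combined treatment (0.81 ± 0.18, adjusted p = 0.0462). A shorter list held genes of secreted proteins that the study names. Apart from IL32, which had been added to it, IL6 was the 1 call among its 10 tested members, and the other 9 did not pass without the block. With the block 6 of 11 rose and 1 fell, IL32 included (6.06% and 9.04% of all genes did). The chemokine CXCL1 stood at 12.9, 6.61 and 7.68 CPM in Ctrl and 19.2, 8.37 and 14.7 CPM in the combined libraries, with overlap. Its log2 fold change was 0.65 ± 0.49 (adjusted p = 0.672, and 0.0352 with the block). CXCL5, a neutrophil chemokine, stood at 1.12, 1.24 and 1.31 CPM in Ctrl and 4.05, 1.81 and 4.05 CPM in the combined libraries (1.42 ± 0.38, adjusted p = 0.0915, and 0.00529 with the block). IL1B, the inflammasome cytokine, stood at 8.24, 5.68 and 6.53 and 10.9, 7.72 and 8.33 CPM (0.41 ± 0.29, adjusted p = 0.64), with overlap. CCL2, a monocyte chemokine, had a log2 fold change of -0.80 ± 0.26 (adjusted p = 0.163, and 0.0355 with the block). VCAM1 and MMP9 stood at or under 2.95 CPM in the 6 libraries, with log2 fold changes of 2.13 ± 0.61 and 1.02 ± 0.53 (adjusted p = 0.117 and 0.465, and 0.0173 and 0.0139 with the block).

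CXCL10, a chemokine induced by interferon, had at most 3 counts in any of the 6 libraries, a level at which no difference was detectable at this depth. Of the other antiviral genes that the study names, none of the next passed without the block and all passed with it. IFI35 had 1.06 ± 0.24 (adjusted p = 0.0524), IFITM1 1.35 ± 0.39 (0.121), MX2 1.40 ± 0.52 (0.243), RIGI 0.99 ± 0.27 (0.102) and IFIT1 0.74 ± 0.35 (0.395), all as log2 fold changes. For MX2, a GTPase that restricts viruses, the libraries held 60.1, 16.4 and 35.3 CPM in Ctrl and 136, 53.9 and 103 CPM after treatment, higher within each pair but overlapping between the groups. Of the interferon genes and receptors, 17 were tested, and SOCS3, an inhibitor of cytokine receptor signaling, was the call: it fell from 80.8, 89.8 and 84.5 to 58.8, 51.8 and 56.9 CPM (-0.61 ± 0.07, adjusted p = 0.00236). Complement (22 tested) had C3 as its call and a median of 0.27. Antigen presentation by MHC class I (20 tested) had ERAP1, the peptide-trimming aminopeptidase, at 88.6, 78.4 and 74.8 CPM in Ctrl and 111, 108 and 108 CPM after treatment (0.43, adjusted p = 0.0239). With the block 9 of its genes rose, a list in which HLA genes share near-identical sequences.

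Called genes of the endoplasmic reticulum stress and ATF4 response rose too. This program adjusts protein folding, amino acid supply and redox balance. Of 28 genes 7 were called higher (25.0%, against 0.736% of all genes) and 0 lower, with a median of 0.32, and 22 were higher in 3 of 3 pairs against 3 lower (21.4% and 23.1% of all genes). With the block 18 rose and 2 fell, and the count was 3 without replicate 1 and 0 without replicate 2. Their summed level was 3560.1, 3253 and 3403 CPM in Ctrl and 4123, 3938 and 4035 CPM after the combined treatment.

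The largest was SLC7A11, which imports cystine for glutathione synthesis and exports glutamate (chromosome 4, 138164097 to 138242349, minus strand). It stood at 14.2, 11.1 and 12.2 CPM in Ctrl and 35.6, 22.6 and 28.6 CPM in the combined libraries (1.22 ± 0.22, adjusted p = 0.0175). DDIT3, the stress transcription factor CHOP, rose from 13.0, 13.3 and 15.5 to 21.7, 21.9 and 20.6 CPM (0.62 ± 0.10, adjusted p = 0.0101). HSPA5, the chaperone BiP of the endoplasmic reticulum, rose from 496, 445 and 470.2 to 582, 682 and 615 CPM (0.41 ± 0.08, adjusted p = 0.0267). None of these overlapped. Smaller rises were called for the chaperone HYOU1 (0.44), the degradation factor HERPUD1 (0.35), the pseudokinase TRIB3 (0.61) and SESN2 (0.71), a sensor of leucine.

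Genes that shape the matrix around cells were among the falls. Of 29 genes for metalloproteinases, their inhibitors and plasminogen activation, 3 fell (10.3%, against 1.27% of all genes) and 0 rose, with a median of -0.12. MMP2, which cuts basement membrane collagen, stood at 12.4, 18.0 and 16.2 CPM in Ctrl and 5.89, 8.37 and 6.22 CPM after the combined treatment (-1.19 ± 0.21, adjusted p = 0.0171). MMP24 (chromosome 20, 35226690 to 35276998, plus strand) fell from 55.9, 59.4 and 60.9 to 30.0, 27.3 and 27.5 CPM (-1.06 ± 0.09, adjusted p = 0.000659). Their inhibitor TIMP2 fell as well, from 892, 905 and 866 to 603, 585 and 592 CPM (-0.58 ± 0.06, adjusted p = 0.000952). Enzymes and an inhibitor thus fell in the same libraries, and none of the 3 overlapped. With the block 10 fell and 3 rose, and 2 fell without replicate 2.

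Of 34 extracellular matrix genes 3 fell (8.82%, against 1.27% of all genes) and 1 rose (2.94%, against 0.736%), with a median of -0.21. With the block 14 fell and 5 rose, where 9.04% and 6.06% of all genes did. LOXL2, which cross-links collagen, fell from 475, 663 and 577 to 290.2, 317 and 308 CPM (-0.91 ± 0.13, adjusted p = 0.00607). COL1A1, the main chain of type I collagen, fell from 3585, 3462 and 3598 to 2719, 2474 and 2736 CPM (-0.42 ± 0.08, adjusted p = 0.0174) and COL8A1 changed by -0.34. FBN1, the microfibril protein fibrillin, went the other way, from 84.2, 66.5 and 68.7 to 132, 105 and 127 CPM (0.73 ± 0.13, adjusted p = 0.0173). COL1A1 is also a marker of fibroblasts, and the summed level of 15 fibroblast and mesenchymal markers was 6213, 6610.2 and 6582 CPM in Ctrl and 4882, 4942 and 5079 CPM in the combined libraries. Most of that sum was COL1A1, with means of 3548 and 2643 CPM, and vimentin (VIM), with 2112 and 1636 CPM, while the median log2 fold change of the 14 tested markers was 0.045 and 8 were above 0. COL1A1 was the call of that list, 1 of its markers had no count in the 6 libraries, and the part of such cells in the matrix values was not tested. Of 28 integrin and focal adhesion genes 3 fell (10.7%, against 1.27% of all genes) and 0 rose, with a median of -0.14. The falls were the integrin subunit ITGB5 (-0.44), the adaptor tensin-2 (TNS2, -0.74) and vinculin (VCL, -0.52), which links integrins to actin. With the block 12 fell and 3 rose. Without replicate 2 no matrix gene and 1 adhesion gene was called lower.

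Some called genes outside these lists were picked after their values were seen. No list or test groups them. The TGF-beta receptor TGFBR2 fell from 117, 135 and 133 to 68.1, 76.2 and 72.8 CPM (-0.83, adjusted p = 0.00258). The TGF-beta-induced matrix protein TGFBI changed by -0.80 (adjusted p = 0.0139), the latent TGF-beta binding protein LTBP3 by -0.87 (adjusted p = 0.0292) and ID1, a target of BMP receptors, by -0.99 (adjusted p = 0.0446). CDC42, the small GTPase of actin protrusions (chromosome 1, 22052627 to 22101360, plus strand), fell from 252, 249.9 and 248 to 166, 132 and 143 CPM (-0.76 ± 0.09, adjusted p = 0.00243). The cytokine receptor LIFR (-0.66), the calcium-binding protein S100A6 (-0.91) and the fucosyltransferase FUT8 (-0.73) fell, and the receptor kinase MET rose from 309.6, 266 and 273 to 426, 494 and 437 CPM (0.68, adjusted p = 0.00387). The thioredoxin reductase TXNRD1 fell from 256, 280.2 and 270.0 to 175, 147 and 158 CPM (-0.75, adjusted p = 0.00236) and the ferritin light chain FTL changed by -0.74 (adjusted p = 0.0429). The aldose reductase AKR1B1 rose by 0.64 (adjusted p = 0.00744).

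Glycolysis and hypoxia-response genes held 5 falls and 1 rise among 29 (17.2% and 3.45%, against 1.27% and 0.736% of all genes), with a median of -0.10. With the block 12 fell and 2 rose, and 18 were lower in 3 of 3 pairs against 4 higher (23.1% and 21.4% of all genes). The summed level was 19345, 20228 and 19858 CPM in Ctrl and 16344, 17268 and 16862 CPM in the combined libraries. GAPDH, the glycolytic enzyme often used to normalize other transcripts, fell from 4072, 4372 and 4238 to 2926, 3152 and 3100.0 CPM (-0.47 ± 0.09, adjusted p = 0.0176). NDRG1, a gene induced by hypoxia, fell from 158, 171 and 159.9 to 106, 97.4 and 98.4 CPM (-0.69 ± 0.07, adjusted p = 0.000688). TPI1 (-0.36), ENO2 (-0.27) and the vessel growth factor VEGFA (-0.45) fell less, and the glucose transporter SLC2A3 rose by 0.40 ± 0.07 (adjusted p = 0.0119). Without replicate 1, 3 were called lower, and without replicate 2, 1.

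Cell cycle lists held few calls. The 40 mitotic genes summed to 8998, 9496 and 9246 CPM in Ctrl and 8638, 8985 and 8818 CPM combined. Ctrl replicate 1 and combined replicate 2 were nearly equal, and the list's median log2 fold change was -0.035. The same genes summed to 8018, 8459 and 8475 CPM with EphB2 alone and 10092, 10109.5 and 10013 CPM with the siRNA alone. Of 40 mitotic genes 1 fell, the kinesin KIF20A, from 240.0, 244 and 235 to 200.1, 181 and 198 CPM (-0.31 ± 0.06, adjusted p = 0.0232), and 6 fell and 1 rose with the block. Of 35 genes of G1/S and DNA replication, the licensing factor CDC6 rose (0.26) and the ribonucleotide reductase subunit RRM2 fell (-0.28), with 6 higher and 8 lower under the block. The calls of these 2 lists were absent without replicate 1 and without replicate 2.

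Other lists gave few calls. In the RNA interference machinery (13 genes), AGO1 fell from 126, 131 and 126 to 99.0, 106 and 103 CPM (-0.32, adjusted p = 0.0204) and the silencing scaffold TNRC6A rose (0.29, adjusted p = 0.0321). NPC1, the lysosomal cholesterol exporter, rose by 0.23 among 25 lysosomal genes, which had 7 higher and 5 lower with the block. FOSL2 fell (-0.36) among 31 immediate early genes, and MYOCD was the call among 18 smooth muscle genes, at 31.2, 32.3 and 28.0 CPM in Ctrl and 68.7, 53.2 and 63.6 CPM after treatment. None of 30 genes of cholesterol and fatty acid synthesis and none of 13 mitochondrially encoded respiratory chain genes was called by edgeR, against 2 higher and 7 lower, and 0, with the block. Of 11 epithelial genes, keratin KRT80 fell from 164, 178 and 159 to 103, 85.8 and 97.4 CPM (-0.81 ± 0.07, adjusted p = 0.000676).

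UPK1A, a uroplakin of bladder epithelium in the same list, was the call with the widest gap. It had 18, 27 and 23 counts in Ctrl, 56, 21 and 35 with EphB2 alone, 73, 24 and 48 with the siRNA alone, and 0, 0 and 0 after the combined treatment (adjusted p = 0.00621). Against 3 counts per library, the limit that a count of 0 allows (0.237 CPM), the Ctrl mean of 1.31 CPM was at least 5.54-fold higher. Among the 434 genes it was the 1 that also differed from both single treatments (adjusted p = 0.0155 against EphB2 and 0.0097 against the siRNA). Counts are kallisto estimates per transcript, and the part of transcript assignment in the 0 counts was not tested.

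How the combined effect stood beside the single effects is given as each comparison's own values, since all 3 share the Ctrl libraries. EphB2 against Ctrl called 8 genes (0.037%, and 1153, or 5.34%, with the block) and ephrin-B1 siRNA against Ctrl 391 (1.81%, and 2931, or 13.6%, with the block). The 12 largest rises had log2 fold changes from 0.09 (SLC36A1) to 2.40 (IL32) with EphB2 alone and from -0.49 (C3) to 1.46 (DHRS2) with the siRNA alone. The 12 largest falls ran from -0.94 (MMP2) to 0.01 (SGMS2) with EphB2 alone and from -1.49 (SGMS2) to -0.53 (MMP24) with the siRNA alone. In the 159 called rises the median was 0.15 with EphB2, 0.27 with the siRNA and 0.44 combined, beside 0.46 for the sum of both single effects. In the 275 called falls these medians were -0.15, -0.42, -0.49 and -0.56. The genes were chosen by the combined effect, so these medians describe them only.

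**Figure D5:**
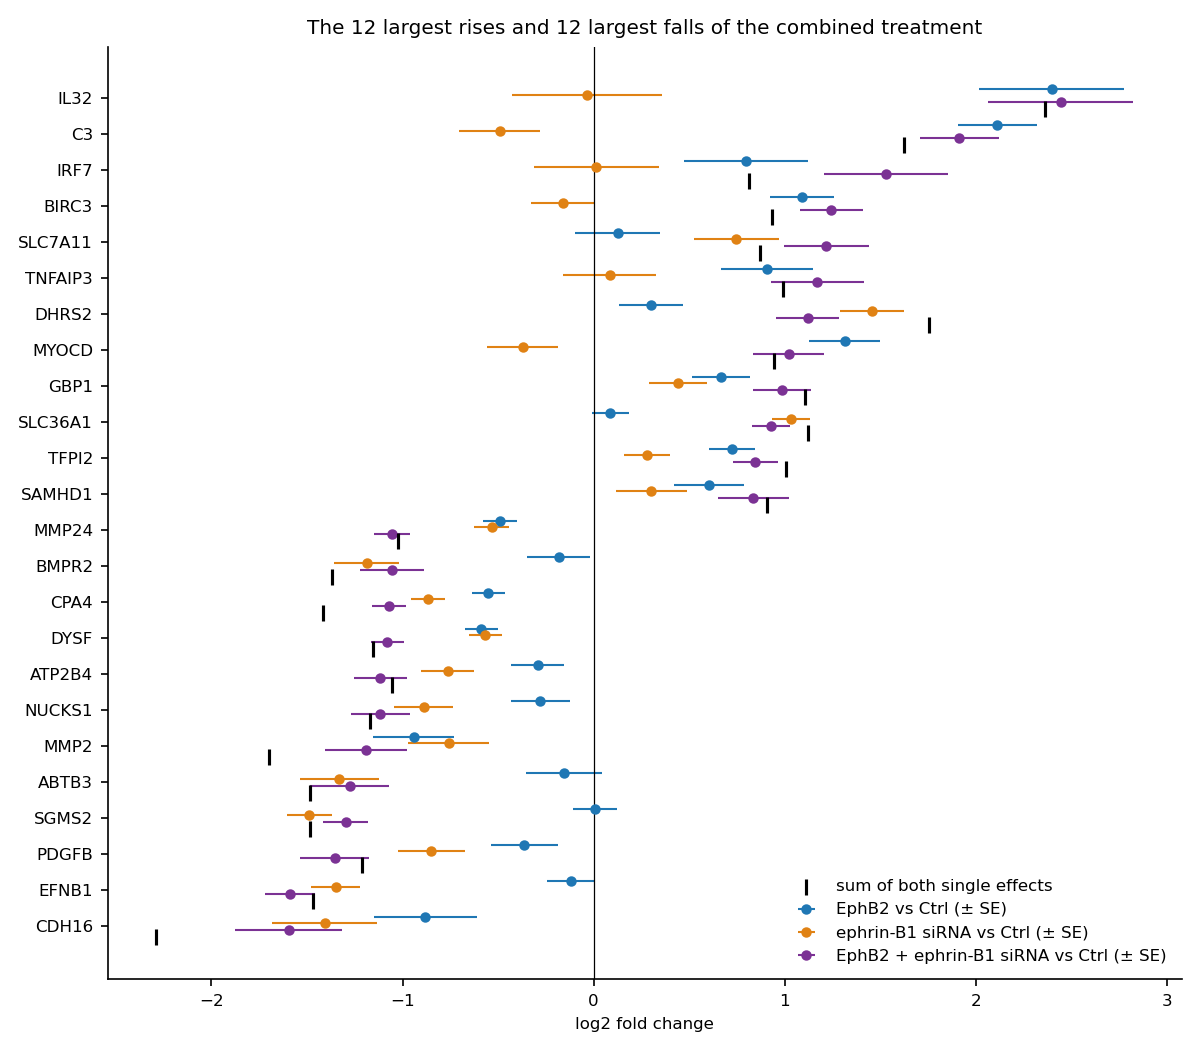
Log2 fold change against Ctrl with its SE for the 24 genes with the largest changes, with EphB2 alone, ephrin-B1 siRNA alone and both, and a tick at the sum of the single effects. IL32 and C3 stand high with EphB2 alone and combined, SGMS2 and EFNB1 stand low with the siRNA alone and combined, and 13 of the 24 combined values differ from the sum by less than 1 SE of that difference, which is not drawn.

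For IL32, C3, BIRC3 and MYOCD the combined level differed from the siRNA alone. IL32 stood at 17.4, 9.04 and 14.5 CPM with EphB2 alone and 3.47, 1.52 and 2.55 CPM with the siRNA alone, and the combined treatment differed from the former by 0.05 ± 0.34 and from the latter by 2.48 ± 0.38 (log2, adjusted p = 0.995 and 0.0391). C3 stood at 27.8, 46.0 and 39.5 CPM and 6.94, 5.49 and 6.15 CPM, with differences of -0.20 ± 0.19 (adjusted p = 0.841) and 2.40 ± 0.21 (adjusted p = 0.00321). MYOCD differed by -0.29 ± 0.18 from EphB2 alone (adjusted p = 0.668) and by 1.39 ± 0.19 from the siRNA alone (adjusted p = 0.0166). None of the 12 falls differed from the siRNA alone without the block. With it DYSF, MMP24, ATP2B4, MMP2 and CPA4 were lower than with the siRNA alone (adjusted p = 0.00113, 0.00234, 0.0386, 0.044 and 0.0476), and the rises IRF7, TNFAIP3, SLC7A11, GBP1, TFPI2 and SAMHD1 passed as well.

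For 10 of the 12 falls and for SLC36A1 the combined level differed from EphB2 alone, and CDH16 and MMP2 were the falls that did not pass. With the block GBP1, DHRS2 and SLC7A11 passed as well. SGMS2 stood at 46.9, 52.8 and 47.8 CPM with EphB2 alone and 19.2, 16.7 and 16.4 CPM with the siRNA alone, and the combined level differed by -1.30 ± 0.12 (adjusted p = 0.00189) and 0.19 ± 0.12 (adjusted p = 0.743). SLC36A1 stood at 16.1, 14.2 and 17.2 and 28.8, 31.0 and 31.6 CPM, with differences of 0.84 ± 0.10 (adjusted p = 0.00746) and -0.10 ± 0.10 (adjusted p = 0.882). Against Ctrl, DYSF and MMP24 were lower with the siRNA alone (adjusted p = 0.0089 and 0.0154), and with EphB2 alone they passed with the block (0.000432 and 0.00264) but not without it (0.059 and 0.12). MMP24 stood at 36.6, 46.3 and 42.5 CPM with EphB2 alone and 43.5, 38.3 and 40.0 CPM with the siRNA alone. A p above the threshold in these contrasts does not show that the levels were equal.

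Side by side, the lists had these medians. The interferon list had a median log2 fold change of 0.57 with EphB2 alone, 0.26 with the siRNA alone and 0.75 combined, and the NF-kB list 0.29, -0.03 and 0.33. The ER stress list had 0.02, 0.17 and 0.32, and the glycolysis list 0.04, -0.28 and -0.10. The mitotic list had -0.168, 0.176 and -0.035. Summed CPM of the ER stress genes were 3456, 3356 and 3475 with EphB2 alone and 3798, 3727 and 3777 with the siRNA alone. The interferon genes summed to 13697, 10054 and 11905 CPM with EphB2 alone and 11930.3, 7780.3 and 9729 CPM with the siRNA alone.

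The combined treatment differed from EphB2 alone in 133 genes (0.616%), 45 higher (0.208%) and 88 lower (0.407%), and from the siRNA alone in 25 (0.116%), 18 higher (0.0833%) and 7 lower (0.0324%). With the block these counts were 2146 (9.93%) and 1496 (6.93%). The first was 83, 0 and 0 without replicates 1, 2 and 3, and the second 3, 1 and 0. Among the 25, NFKBIA was higher than with the siRNA alone by 0.79 ± 0.08 (adjusted p = 0.00716), and SQSTM1 by 0.39. KIF20A differed by -0.50 and ALDH6A1, an enzyme of valine breakdown that was chosen after its value was seen, by -0.54 ± 0.07 (adjusted p = 0.00955). IL6 was higher by 1.14 ± 0.18 (adjusted p = 0.0478). Against EphB2 alone, IL1B differed by -0.51 ± 0.28 (adjusted p = 0.606, and 0.0193 with the block), IL6 by -0.23 ± 0.18 (adjusted p = 0.769) and CXCL1 by -0.23 ± 0.48 (adjusted p = 0.952).

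The difference between the combined effect and the sum of both single effects passed in 0 of 21601 genes by edgeR (498 at an unadjusted p under 0.05). With the block it passed in 1, UPK1A (1448 unadjusted). Of the 24 genes, DHRS2 and CPA4 stood more than 2 SE of the difference from the sum, as did 3.78% of all genes. DHRS2 stood at 4.04, 3.36 and 4.13 CPM in Ctrl, 4.63, 4.99 and 4.54 with EphB2 alone, 9.94, 10.8 and 10.9 with the siRNA alone and 7.19, 10.5 and 7.39 combined, -0.63 ± 0.23 from the sum on the log2 scale. CPA4 stood at 67.0, 81.4 and 74.5, 47.4, 56.2 and 48.6, 39.5, 42.5 and 40.3 and 35.2, 36.8 and 34.0 CPM in the same order, 0.34 ± 0.12 from the sum. The combined value lay below the sum for DHRS2 and above it for CPA4, and neither difference passed the adjusted threshold.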

How the data were processed

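HMC3 RNA was ribodepleted and sequenced as paired ends. The authors quantified reads with kallisto against Ensembl cDNA of GRCh38, and the deposited tables give estimated counts and TPM per transcript (kallisto version not given in the sources used here). Of 188753 transcripts, 167067 (88.5%) matched GENCODE 44, and their estimated counts, 95.25 to 95.98% of each library, were summed over 36315 genes and rounded. The 21686 transcripts left out can include further copies of the MHC region, so HLA genes, TNF and AIF1 are uncertain. A gene entered the test when its counts added up to 10 or more. The test was that of edgeR 4.0.16 (R 4.3.3, TMM, quasi-likelihood test, 4 groups, no block), with contrasts against Ctrl and each single treatment. TPM values, deposited by the authors, served as an alternative in limma 3.58.1, and DESeq2 1.42.0 as another. The fit was tested on simulated data, where the fit without the block made no false call and the blocked fit made more than its threshold allows, so that blocked counts may be too high. The simulation kept the differences between replicates, and there the fit without the block missed more of the changes put in than the blocked fit.

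Replicate numbers follow the experiment numbers that the submitters gave the libraries, and so pair them. Deviations from the group means were correlated between the combined and the Ctrl library of each replicate number over 14272 genes. The r was 0.607 for replicate 1, 0.622 for replicate 2 and 0.009 for replicate 3, so in replicate 3 the data alone do not show the pairing. Libraries of a group are described by the study as biological replicates of 1 cell line, and p-values measure the spread between these libraries. Replicate 3 lay between replicates 1 and 2 for most genes that set those apart, and whether its libraries were independent cultures was not tested. The members and the 31 gene lists were chosen with earlier results of these data known. Named genes are the 12 largest called rises and 12 largest called falls with a mean of at least 1 CPM and the same direction in 3 of 3 pairs, the called members of each list or up to 3 others, ephrin-B and EphB genes, markers, genes the study names and, where said, genes chosen after their values were seen. Promoters came from RefSeq (GRCh38.p14). The siRNA sequence was not used here. A few genes and 1 list are not reported here.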

Additional observations from a re-analysis of the deposited data

How the results depend on the processing

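The count of 434 genes depended on how replicates were treated. With the replicate block it was 3261, with the replicate block and only the groups compared 2991, with the replicate block in DESeq2 2735, and with the block and replicate 3 of every group left out 1167. With the block it was 2750 without replicate 1 and 1988 without replicate 2, both added after seeing the data. DESeq2 without the block called 1145, a fit on only the groups compared 93, and limma on log2(TPM + 1) and log2(TPM + 0.1) 4 and 8. Leaving out single libraries or same-numbered sets gave 0 to 354. By thresholds of 0.4 on the log2 scale and 0.05 for p without adjustment 1217 genes passed, and 633 to 1388 with replicates left out. Of the 1217, 46.8% were higher, against 22.3% and 26.2% on the TPM scales, where the median of expressed genes shifted to -0.097 and -0.111. EFNB1 lost its call on log2(TPM + 1) (-1.34, adjusted p = 0.08) and without replicate 3 (-1.58), and its log2 fold change ran from -1.65 to -1.54 with replicates left out.

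Against EphB2 alone, 133 genes became 2146 with the block, 333 with the block without replicate 3, and 0 to 83 with a replicate left out. Against the siRNA alone, 25 became 1496, 169 and 0 to 3. The combined effect minus the sum gave 0, and 1 with the block and 6 with the block without replicate 3. None of the 141 named genes changed direction under the 22 alternatives where it passed in the main fit or in the alternative. Sign changes of genes that passed in neither were not counted. Each alternative set for the study could be run. Depth limits genes near 3 counts per library.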

Other observations

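Some further called genes, chosen after their values were seen, belong to none of the lists. DPYSL3, a collapsin response mediator of growth cones, stood at 101, 105 and 104 CPM in Ctrl and 145, 146 and 137 CPM after the combined treatment (log2 fold change 0.46 ± 0.05, adjusted p = 0.00236, edgeR). It was higher in 3 of 3 treated libraries than in any control. UCP2, a mitochondrial carrier, fell from 76.5, 75.5 and 76.4 to 55.6, 49.8 and 53.8 CPM (-0.52 ± 0.06, adjusted p = 0.003), and NRBF2, a subunit of the autophagy lipid kinase complex, rose from 18.0, 18.3 and 16.4 to 28.5, 28.9 and 27.2 CPM (0.69 ± 0.11, adjusted p = 0.0105). These calls, like all others of the fit without the block, were absent without replicate 3.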
